A study of Mus musculus with 8 samples.

Results

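Genes of glia and Schwann cell precursors were followed in cultured sacral neural crest cells of mouse embryos that were wild type (WT) or carried 2 copies of the Sox10 Dom allele (Dom/Dom). The set holds 8 genes, Fabp7, Dhh, Adgrg6, Gas7, S100b, Cnp, Pmp22 and Egr2, chosen by gene symbol. All 8 were found among the 6855 genes tested, each with 1 probe set. Of these, 3 fell in Dom/Dom cultures: Adgrg6 was 1.97-fold lower, Cnp 2.29-fold lower and Gas7 1.51-fold lower. Of all genes tested, 0.481% passed in either direction and 0.408% were called lower. Adgrg6 kept its call in all 8 fits that each left out 1 array, Cnp in 2 and Gas7 in 1. The call of Gas7 was also lost with the replicate number as a block (limma adjusted p = 0.0566), and 0 of the 8 passed when all 16381 probe sets were tested. The other 5, Fabp7, Dhh, S100b, Pmp22 and Egr2, did not pass the test, and their 95% intervals stayed between -0.29 and 0.35 on the log2 scale. Dhh, S100b and Egr2 lay near the level of silent genes, so their intervals do not bound a change in expression.

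Schwann cells are the glia of peripheral nerves, and they arise from neural crest cells through an intermediate, the Schwann cell precursor, which travels along growing axons. Sox10 is a transcription factor that crest cells and their glial progeny keep switched on, and it acts at each step of this lineage, from neuregulin receptor expression to myelin gene expression. Early members of the lineage express genes such as Fabp7 and Dhh, whereas S100b, Cnp, Pmp22 and Egr2 are best known from immature and myelinating Schwann cells. Adgrg6 is counted here with the early genes, although its best known role is at the onset of myelination. Dom is a spontaneous frameshift allele of Sox10 that replaces the normal end of the protein.

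The 8 samples, 4 of each genotype, were measured on Affymetrix Mouse Gene 1.0 ST arrays. Per the labels, the neural tube caudal to somite 24 was taken from embryos at embryonic day 9.5 and cultured in DMEM/F12 with 10% serum, and the explant was removed after 24 hours, so that the RNA came from the cells that had left it. Both genotypes were treated alike. The Dom allele is present in every cell of the embryo, and no label says whether embryos were pooled or whether replicates were separate litters, and p-values therefore cover only the spread among these arrays, technical or not. The Dom transcript is still made, so the level of Sox10 does not check the labels. Sox10 stood at 9.98, 10.94, 10.52 and 10.55 on Dom/Dom arrays 1 to 4 and at 11.67, 11.46, 11.89 and 11.75 on wild-type arrays 1 to 4.

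All levels are log2 expression values, so that a difference of -1 means 2-fold lower. The text gives differences as Dom/Dom minus wild type. Array medians ran from 8.60 to 8.78, and the values carry no detection calls. As a guide to the level of silent genes, 213 olfactory receptor genes had mean levels with a median of 6.54, and 95% of them lay below 8.22. Of the 9 neural crest markers listed, 7 were measured and all 7 lay above 8.22. Their mean level was 10.95 to 11.14 in Dom/Dom and 11.26 to 11.45 in wild type, and 1 of 7, Sox10, fell (limma; 3 at an unadjusted p under 0.05, 2 with the replicate block). Among the markers of other cells, the 2 measured melanoblast genes, Dct and Pmel, both fell, and their mean level was 7.99 to 8.69 in Dom/Dom against 10.06 to 10.81 in wild type. The 7 measured mesoderm and fibroblast genes had mean levels of 9.43 to 9.88 in Dom/Dom and 9.19 to 9.41 in wild type, with 0 of 7 past the test (limma, 1 at an unadjusted p under 0.05 and 1 with the replicate block) and Meox1, Meox2 and Myf5 below 8.22. The 6 measured neuronal genes ranged from 10.18 to 10.75 in Dom/Dom and from 10.49 to 11.10 in wild type, with 0 of 6 past the test (2 unadjusted, 1 with the block). Mean levels were 10.04 to 10.51 and 9.55 to 9.93 for 2 smooth muscle genes, 10.24 to 10.73 and 10.62 to 11.20 for 3 epithelial genes, and 8.64 to 9.38 and 8.92 to 9.66 for 3 endothelial and blood genes, Dom/Dom first. In these 3 lists 0 passed (limma; unadjusted 2, 2 and 0, and with the block 0, 1 and 0), and Pecam1 and Ptprc lay below 8.22. All 7 mesoderm and fibroblast genes and the 2 smooth muscle genes had differences above 0. All 6 neuronal, all 3 epithelial and all 3 endothelial and blood genes had differences below 0, as had 50.4% of all genes tested. The part of these other cells in the differences described here was not tested. In such bulk cultures, fewer cells of a type and less RNA per cell cannot be told apart.

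The upstream sequences of a gene that fell, Cnp, and of one that did not pass, Fabp7, are shown because SOX proteins bind a short motif that can be looked for in them. Both are read 5′ to 3′ on the plus strand from RefSeq's GRCm38.p6, at chr11:100574689-100574908 for Cnp and chr10:57784673-57784922 for Fabp7, and end where the annotated gene begins. Capitals mark a match to the motif letters ACAAAG or ACAATG on either strand.
Cnp: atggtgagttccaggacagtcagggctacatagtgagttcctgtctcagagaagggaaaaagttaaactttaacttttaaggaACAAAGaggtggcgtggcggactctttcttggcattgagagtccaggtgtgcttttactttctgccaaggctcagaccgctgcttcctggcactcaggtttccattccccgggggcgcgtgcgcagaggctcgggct
Fabp7: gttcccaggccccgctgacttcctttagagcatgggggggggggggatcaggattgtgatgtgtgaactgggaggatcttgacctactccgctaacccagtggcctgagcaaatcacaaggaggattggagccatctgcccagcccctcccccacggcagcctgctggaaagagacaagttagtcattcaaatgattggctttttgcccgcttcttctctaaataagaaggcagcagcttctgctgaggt
The match in Cnp begins 167 bases before the start site that RefSeq gives for this window. Promoter windows were matched for 7 of the 8 genes, in 14 windows over alternative starts, and within the 250 bases before the start 1 of the 14 held a match. Some windows of Egr2 and of Pmp22 overlap each other, so the 14 are not separate promoters. By gene, 1 of the 7 held a match. Of all 32851 promoter windows of this length, 25.2% held one. The window of Adgrg6 held no match and lies inside the annotated gene, whose first start is farther upstream. All windows of Egr2 and all but 1 of those of Pmp22 also lie inside their genes. A match describes these letters only.

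**Figure D1:**
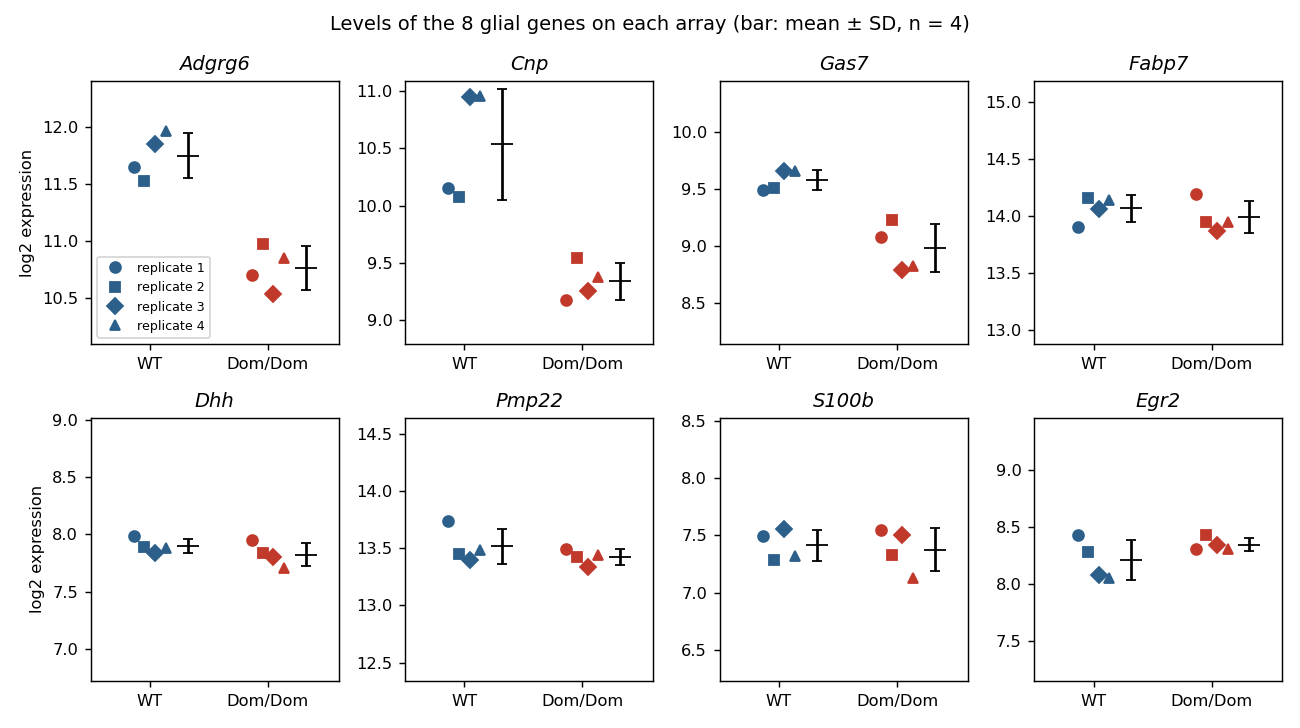
Log2 expression of the 8 glial genes on each array, WT in blue and Dom/Dom in red, with 1 symbol shape per replicate number and black bars for the mean ± SD of 4 arrays. Every panel spans the same number of log2 units; the groups are apart for Adgrg6, Cnp and Gas7 and overlap for the other 5 genes.

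Adgrg6 (also called Gpr126), an adhesion G protein-coupled receptor that Schwann cells need to begin myelination, fell. Its level on Dom/Dom arrays 1 to 4 was 10.71, 10.97, 10.54 and 10.86. On wild-type arrays 1 to 4 it was 11.65, 11.53, 11.85 and 11.96. Every Dom/Dom array lay below every wild-type array, and the groups had almost the same spread. The means were 10.77 ± 0.19 and 11.75 ± 0.20 (SD, n = 4), and Dom/Dom differed by -0.98 ± 0.12 (SE; limma adjusted p = 0.00745). An exact two-sided permutation test over the 8 arrays, which ignores the pairing by replicate number, gave p = 0.0286, its smallest. Exchanging genotypes only within the 4 pairs gave an exact p of 0.125, which is also the smallest possible, so the paired test cannot reach 0.05 for any gene here. The call held in 8 of 8 fits that each left out 1 array, with adjusted p from 0.00744 to 0.0372.

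Fabp7 encodes the brain-type fatty acid binding protein, a marker of radial glia and of Schwann cell precursors. It stood at 14.19, 13.95, 13.87 and 13.95 on Dom/Dom arrays 1 to 4 and at 13.90, 14.16, 14.06 and 14.14 on wild-type arrays 1 to 4. The groups overlapped, with Dom/Dom replicate 1 the highest of all 8 arrays and wild-type replicate 1 the lowest of its genotype. The difference was -0.08 ± 0.09 (SE), with a 95% interval from -0.28 to 0.13 (limma adjusted p = 1.00). This interval does not reach that of Adgrg6, which ran from -1.25 to -0.71. Fabp7 thus differed by less than the spread between arrays on a probe set brighter than all 213 olfactory receptor genes. Whether so bright a probe set shows a difference at full size was not tested.

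Dhh encodes Desert hedgehog, the hedgehog ligand that Schwann cells and their precursors send to the cells forming the nerve sheath. Its level was 7.95, 7.84, 7.80 and 7.71 on Dom/Dom arrays 1 to 4 and 7.99, 7.89, 7.84 and 7.88 on wild-type arrays 1 to 4. It was lower in Dom/Dom in all 4 same-numbered pairs, by at most 0.17, as were 10.7% of all genes tested. The groups overlapped, and the difference of -0.07 ± 0.08 (SE) did not pass (limma adjusted p = 1.00). Its mean level was above that of 187 of the 213 olfactory receptor genes but under their 95% limit, so its signal over background is unknown.

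Cnp encodes a phosphodiesterase abundant in the cytoplasm of myelin-forming glia, and it showed the largest fall of the set. It stood at 9.17, 9.54, 9.26 and 9.38 on Dom/Dom arrays 1 to 4. On wild-type arrays 1 to 4 it stood at 10.16, 10.08, 10.95 and 10.96. The groups did not overlap, and the wild-type arrays fell into a lower pair, replicates 1 and 2, and a higher pair, replicates 3 and 4. The means were 9.34 ± 0.16 and 10.54 ± 0.48 (SD, n = 4), and Dom/Dom differed by -1.20 ± 0.20 (SE; limma adjusted p = 0.0336). The exact permutation test again gave its smallest p, 0.0286 over the arrays and 0.125 within pairs. The call was kept without wild-type replicate 1 or 2 but lost without any 1 of the other 6 arrays (Dom/Dom 1 to 4, WT 3 and WT 4), with adjusted p up to 0.137; it was also lost with quantile normalization (0.0606). The difference itself stayed between -1.35 and -1.06 in these 8 fits.

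Pmp22 encodes a membrane protein of compact myelin that is also made outside glia. It was at 13.50, 13.43, 13.33 and 13.44 on Dom/Dom arrays 1 to 4 and at 13.73, 13.45, 13.40 and 13.48 on wild-type arrays 1 to 4. Wild-type replicate 1 was the highest of the 8, and the other 7 lay between 13.33 and 13.50. The difference was -0.09 ± 0.09 (SE), with a 95% interval from -0.29 to 0.11 (limma adjusted p = 1.00). Pmp22 was lower in Dom/Dom in 4 of 4 pairs, as were 10.7% of all genes tested. Pmp22 was lower by 0.24 in replicate 1 and by at most 0.06 in the others. Like Fabp7, it was brighter than all 213 olfactory receptor genes, and no change was resolved there. Whether a difference shows at full size at this level was not tested.

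S100b, a calcium-binding protein used as a marker of maturing Schwann cells, was near the level of silent genes. Its values were 7.54, 7.32, 7.51 and 7.13 on Dom/Dom arrays 1 to 4 and 7.50, 7.28, 7.56 and 7.32 on wild-type arrays 1 to 4. The arrays of replicates 1 and 3 were the higher ones in both genotypes, and the groups overlapped throughout. The difference was -0.04 ± 0.11 (SE; limma adjusted p = 1.00), lower in 2 of 4 pairs and higher in 2, and 156 of the 213 olfactory receptor genes had lower levels.

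Egr2 (Krox20) encodes the zinc finger transcription factor that switches on the myelin genes, working with Sox10. It stood at 8.31, 8.43, 8.34 and 8.31 on Dom/Dom arrays 1 to 4 and at 8.43, 8.28, 8.08 and 8.05 on wild-type arrays 1 to 4. It was the 1 gene of the 8 with a difference above 0, and it was higher in Dom/Dom in 3 of 4 pairs. The groups overlapped through wild-type replicate 1, and the difference of 0.13 ± 0.10 (SE) did not pass (limma adjusted p = 1.00). Its mean level was just above the 95% limit of the olfactory receptor genes.

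Gas7, growth arrest-specific 7, encodes an adaptor of the actin cytoskeleton and membrane that is best known from neurite outgrowth, and it was assigned to neither stage. Its level was 9.08, 9.23, 8.80 and 8.83 on Dom/Dom arrays 1 to 4 and 9.49, 9.51, 9.66 and 9.66 on wild-type arrays 1 to 4. The groups did not overlap, and the wild-type arrays were close together. The means were 8.98 ± 0.21 and 9.58 ± 0.09 (SD, n = 4), and Dom/Dom differed by -0.60 ± 0.11 (SE; limma adjusted p = 0.0446; exact permutation p = 0.0286 over the arrays and 0.125 within pairs). The call was narrow: it was lost with the replicate block (adjusted p = 0.0566). It was also lost without any 1 array other than Dom/Dom replicate 2, that is without Dom/Dom 1, 3 or 4 or any of the 4 wild-type arrays (adjusted p up to 0.184).

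**Figure D2:**
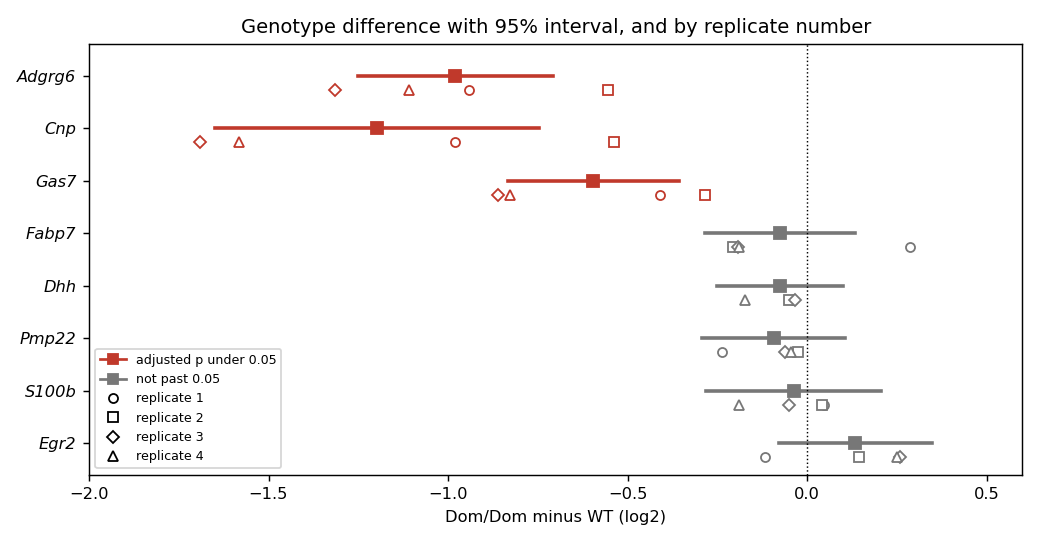
Dom/Dom minus WT difference of each gene in log2 units (squares) with its 95% interval from limma (lines), and below each the differences of the 4 same-numbered pairs (open symbols). Red marks adjusted p under 0.05, reached by Adgrg6, Cnp and Gas7, whose 4 pairs all lie below 0, as do those of Dhh and Pmp22.

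By count, 3 of the 8 genes passed the test, all lower in Dom/Dom, where 0.481% of all genes passed in either direction and 0.408% were called lower. With the replicate block 2 of 8 passed, Adgrg6 and Cnp, both lower, where 1.5% of all genes passed and 1.05% were called lower. Groups were apart in 3 of 8 genes, against 3.78% of all genes. At an unadjusted limma p under 0.05 the same 3 of the 8 passed, against 6.11% of all genes. The median difference was -0.08 over the 8 genes and -0.001 over all genes tested, with 7 of 8 and 50.4% of all genes below 0. Since the genes were chosen with earlier results of these data known, these shares describe the set and do not test it. Adjusted over all 16381 probe sets, named or not, 0 of the 8 passed, with limma adjusted p of 0.0834 for Adgrg6, 0.233 for Cnp and 0.272 for Gas7.

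Of the 3 early genes, Fabp7, Dhh and Adgrg6, 1 fell, and their median difference was -0.08. Of the 4 late genes, S100b, Cnp, Pmp22 and Egr2, 1 fell, and their median difference was -0.07. These counts rest on where Adgrg6 is placed: counted as late for its role in myelination, it would leave 0 of 2 early genes and 2 of 5 late genes that fell. Beside Adgrg6 and Cnp, the genes of both stages lay between -0.09 and 0.13. Of these, Dhh and S100b had mean levels under the 8.22 limit of the olfactory receptor genes, and Egr2 lay just above it. Signal over background is unknown for Dhh, S100b and Egr2, so the counts and medians do not show that their expression was unchanged. For the bright Fabp7 and Pmp22, whether differences show at full size was not tested.

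The differences of the 3 genes that fell varied between pairs of same-numbered arrays. Cnp differed by -0.98, -0.54, -1.69 and -1.58 in replicates 1 to 4. Adgrg6 differed by -0.94, -0.55, -1.32 and -1.11, and Gas7 by -0.41, -0.28, -0.86 and -0.83. Replicate 2 gave the smallest difference in all 3 genes and replicate 3 the largest. Averaged within replicates 1 and 2, Cnp differed by -0.76, Adgrg6 by -0.75 and Gas7 by -0.35, and within replicates 3 and 4 by -1.64, -1.21 and -0.84. Sox10 differed by -1.69, -0.52, -1.37 and -1.20, so that its replicate 2 was also the smallest, while its largest difference was in replicate 1. Whether the genotype effect differs between these sets of replicates was not tested. In the same pairs Fabp7 differed by 0.29, -0.21, -0.19 and -0.19, above 0 in replicate 1 and below 0 in the other 3.

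**Figure D3:**
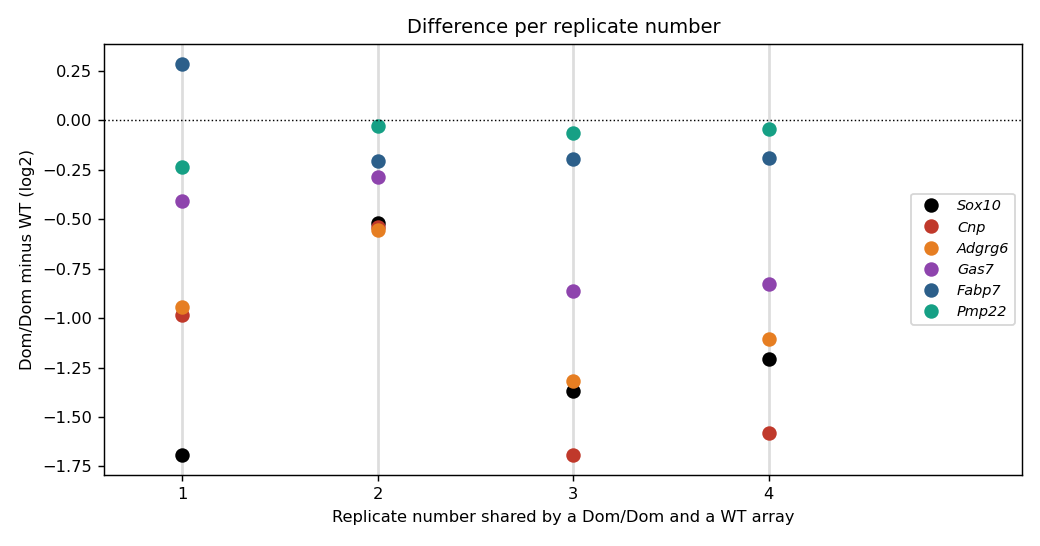
Dom/Dom minus WT difference in log2 units (vertical axis) for each replicate number (horizontal axis), for Sox10, the 3 genes that fell, and Fabp7 and Pmp22. Replicate 2 holds the smallest differences of Cnp, Adgrg6, Gas7 and Sox10, while Fabp7 and Pmp22 stay within 0.29 of 0 in all 4.

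Other genes of the lineage were read from the same fit. Of 19 early glial and crest genes listed, 9 were measured, of which 3 fell (Sox10, Cdh19 and Erbb3), 1 rose (Sostdc1, a secreted antagonist of BMP and Wnt signals) and 5 did not pass; their median difference was -0.92. Cdh19, a cadherin of Schwann cell precursors, stood at 6.09, 6.63, 7.14 and 7.63 on Dom/Dom arrays 1 to 4 and at 10.39, 10.37, 11.83 and 11.92 on wild-type arrays 1 to 4 (limma adjusted p = 0.00166, kept in 8 of 8 fits without 1 array). All 4 Dom/Dom values lay under the 8.22 limit of the olfactory receptor genes, so the size of its fall, -4.25 as fitted, is not a measured fold. Erbb3, the receptor through which axonal neuregulin sustains the precursors, differed by -1.57 ± 0.24 (SE, adjusted p = 0.0214). The calls of Sox10, Erbb3 and Sostdc1 were each lost on removing Dom/Dom 3, Dom/Dom 4, WT 3 or WT 4, with adjusted p up to 0.0862. Over all 16381 probe sets they were lost too, at limma adjusted p of 0.147, 0.178 and 0.127. Cdh19 kept its call there (0.0397).

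Among the early genes that did not pass, Ednrb, the endothelin receptor that controls crest migration, differed by -0.92 (limma adjusted p = 0.0718; 0.0273 without wild-type replicate 2). Its groups did not overlap, at 11.79 to 12.05 in Dom/Dom and 12.39 to 13.25 in wild type. The neurotrophin receptor gene Ngfr differed by -0.95 (adjusted p = 0.267), with Dom/Dom replicate 1 at 11.96, inside the wild-type range, and the other 3 Dom/Dom arrays at 10.45 to 10.93. Without that array its adjusted p was 0.00224. Tfap2a, a crest transcription factor, showed a difference of -0.50 without passing (adjusted p = 0.108), and passed with the replicate block (0.0418). Sox9, which precedes Sox10 in crest cells, differed by 0.09 (adjusted p = 1.00).

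Of 23 genes of later Schwann cells and myelin, 6 were measured, of which 1 fell, 0 rose and 5 did not pass, with a median difference of -0.06. The gene that fell was Cmtm5, which encodes a membrane protein found in myelinating glia. Its level was 8.67, 8.60, 8.43 and 8.34 on Dom/Dom arrays 1 to 4 and 9.34, 9.16, 9.97 and 9.96 on wild-type arrays 1 to 4. The groups did not overlap, and as in Cnp the wild-type arrays of replicates 3 and 4 were the higher. Its difference was -1.10 ± 0.18 (SE; limma adjusted p = 0.0311). This call was lost with the replicate block (adjusted p = 0.0533), with quantile normalization (0.0561) and on removing Dom/Dom 2, 3 or 4, WT 3 or WT 4 (up to 0.133). Testing all 16381 probe sets also lost it (limma adjusted p = 0.224). Aspa, the aspartoacylase of oligodendrocytes, differed by -0.38 (adjusted p = 0.291), at a level under the 95% limit of the olfactory receptor genes. Gfap also lay under this limit, so signal over background is unknown for both. Nab1 and Nab2, corepressors that bind Egr2, differed by 0.20 and 0.21 (adjusted p = 0.806 and 0.851).

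**Figure D4:**
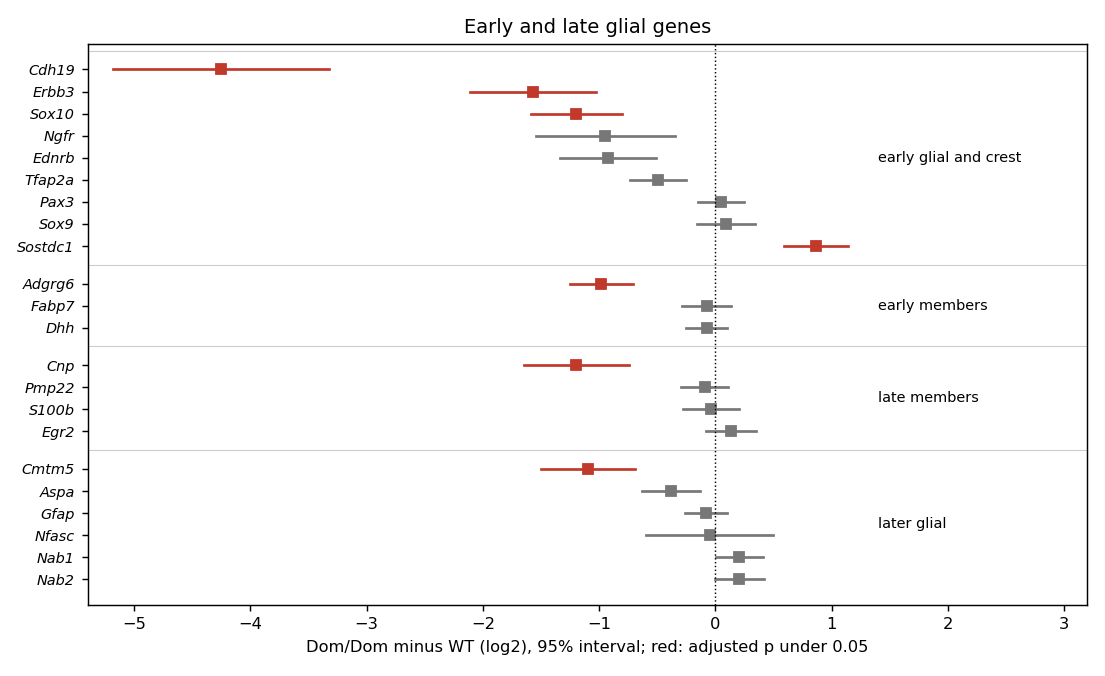
Dom/Dom minus WT difference in log2 units with its 95% interval for the measured early glial and crest genes, the early and late genes of the set, and the later Schwann cell and myelin genes. Red marks adjusted p under 0.05: 3 lower and 1 higher of 9 in the early list, 1 each of 3 and 4 in the set, and 1 of 6 in the later list.

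Genes that act with the set changed in few cases. Of 11 genes that receive or relay the Dhh signal, 5 were measured and 0 passed (limma, with 0 also at an unadjusted p under 0.05 and with the replicate block), with differences between 0.06 and 0.16. The highest was that of Gli3, a transcription factor of the pathway, at 0.16 (adjusted p = 1.00). Of 12 ligands of Adgrg6 and genes of cyclic AMP signalling, through which this receptor acts, 7 were measured and 0 passed (limma, 1 at an unadjusted p under 0.05). That 1 was Adcy1, an adenylyl cyclase, which had the largest difference at -0.21 (adjusted p = 0.747). Of 7 neuregulin pathway genes, 5 were measured and 1 fell, Erbb3. Its dimerisation partner Erbb2 differed by -0.17 (adjusted p = 1.00) and Egfr by 0.37 (adjusted p = 0.826, and 0.0452 once replicates were blocked).

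Relatives of the set in sequence or name numbered 29 in the list, of which 7 were measured and 0 passed (limma, 1 at an unadjusted p under 0.05), with a median difference of 0.001. The exception, Fabp3, a fatty acid binding protein related to Fabp7, differed by -0.67 (limma adjusted p = 0.201; 0.0469 with the replicate block, 0.0223 without wild-type replicate 2). Gas2l3, a cytoskeletal linker that shares only the growth-arrest name with Gas7, differed by -0.35 (adjusted p = 0.980).

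The genes whose values over the 8 arrays were most like those of each gene that fell were found by the mean absolute difference between centred log2 values. They were picked for following a gene with a genotype difference on these same arrays, so their own differences describe that choice and are given with no test. Closest to Cnp was Deptor, an inhibitor of mTOR, at 0.05, where the median over all genes was 0.60. Next came Aldh1l2, a mitochondrial folate enzyme, at 0.11 and Il1rap, an interleukin-1 receptor subunit, at 0.12. Deptor differed by -1.31, Aldh1l2 by -1.16 and Il1rap by -1.09.

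Closest to Adgrg6 were Adam23, a neuronal adhesion protein, at 0.09, Sphk1, a sphingosine kinase, at 0.10 and 1700019D03Rik at 0.12, where the median over all genes was 0.49. Adam23 differed by -0.81 and Sphk1 by -0.96. The means of 1700019D03Rik, 6.81 in Dom/Dom and 7.81 in wild type, both lay under the 8.22 limit, so its signal over background is unknown. Closest to Gas7 were Itpk1, an inositol phosphate kinase, at 0.06, the protease gene Adamts4 at 0.07 and the semaphorin gene Sema4c at 0.09, where the median over all genes was 0.31. Itpk1 differed by -0.65, Adamts4 by -0.55 and Sema4c by -0.50.

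The genes of the set lie on 3 chromosomes, with 4 on chromosome 10, 3 on chromosome 11 and 1 on chromosome 15, where Sox10 also lies. Of the 16 protein-coding neighbours next to them in RefSeq's GRCm38.p6 order, 15 were measured and 0 passed (limma; 1 at an unadjusted p under 0.05, 0 with the replicate block), with differences from -0.67 to 0.20 and a median of -0.05. Beside Cnp, Ttc25 differed by -0.001 and Dnajc7 by 0.04. Beside Adgrg6, Hivep2 differed by 0.20 and Vta1 by 0.03, and beside Gas7, Myh13 differed by -0.08 and Glp2r by 0.05. The lowest difference was that of Smpdl3a, which lies next to Fabp7 and encodes an acid sphingomyelinase-like enzyme, at 9.24 ± 0.15 and 9.91 ± 0.37 (SD, n = 4; limma adjusted p = 0.165). It was singled out after its values were seen, and its groups did not overlap, whereas those of Fabp7 did.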

How the data were processed

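The deposited table holds log2 expression values that the authors made for each probe set on each array. Tools in the submitters' processing notes are RMA and Partek; which versions is not given in the sources used here. Dim probe sets show compressed differences after RMA. The table used here held 16381 probe sets, of which 7416 had 1 gene symbol in the platform annotation, 509 several and 8456 none. Probe sets with 1 symbol were kept, the brightest per gene, giving 6855 genes, of which 6829 were matched by gene identifier to RefSeq GRCm38.p6 and 6707 lay on chromosomes 1 and 10 to 16. Listed genes outside these were not analysed here.

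The 2 genotypes were tested against each other by limma (version 3.58.1, R 4.3.3; eBayes, two-sided, Benjamini-Hochberg over the 6855 genes, threshold 0.05), which was tested on simulated data. The members and lists were chosen with earlier results of these data known. The text names the members, listed genes past the threshold and up to 4 more per list by size of difference, and the 3 genes most like each member that fell.

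Same-numbered arrays correlated at 0.47, 0.58, 0.61 and 0.67 in their deviations from genotype means, so the numbers, which both genotypes share in their titles, were taken to pair the samples. The main fit has genotype as its only term and ignores this pairing, and the replicate block is an alternative. With the block, limma adjusted p was 0.0171 for Adgrg6 and 0.0367 for Cnp. Differently numbered arrays correlated at 0.11 and 0.14 within replicates 1 and 2 and at 0.38 and 0.21 within replicates 3 and 4. Each array correlated most with its same-numbered partner, but a grouping of replicates 1 and 2 against 3 and 4 may be present as well. No label gives the origin of either. The number of arrays limits the precision. Other alternatives left out each array in turn, shifted or quantile-normalized arrays, dropped genes below the silent reference, averaged probe sets, tested all probe sets, used eBayes with trend or robust settings, or weighted arrays.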

Additional observations from a re-analysis of the deposited data

Results flagged for a closer look

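For each named gene and list mean, the lowest and highest of a genotype's 4 arrays were compared with the other 3. A lone distant value turned up in 4 of 104 such comparisons, where chance gives about 1 in 20. Erbb3 was low in Dom/Dom replicate 1, at 10.03 against 10.80 to 10.96 on the other 3 Dom/Dom arrays. In wild-type replicate 1, Adcy1 was high, at 9.45 against 9.17 to 9.20, and Nab2 was high, at 11.31 against 10.99 to 11.04. The mean of the 2 smooth muscle genes was low in wild-type replicate 2, at 9.55 against 9.89 to 9.93. None of the 8 glial genes of the set showed one.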

How the results depend on the processing

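The directions of Adgrg6, Cnp, Gas7, Fabp7, Dhh, Pmp22 and Egr2 stayed the same under each alternative run. S100b, which was not called, ranged from -0.0937 to 0.0447 when 1 array was left out and was above 0 without Dom/Dom replicate 4 or wild-type replicate 3 (0.0101). Of the 8 genes, 3 were called; leaving out 1 array gave 1 to 2, and over all 16381 probe sets 0 were called, where Adgrg6 had limma adjusted p = 0.0834, Cnp 0.233 and Gas7 0.272. With quantile normalization Cnp had adjusted p = 0.0606. The 33 genes called in all became 103 with the replicate block, 30 of them shared, and 10 to 51 when 1 array was left out: 10 to 12 without an array of replicates 3 or 4, and 51 without wild-type replicate 2. The count was 4 over all probe sets and 190 with array weights. A block for replicates 1 and 2 against 3 and 4, chosen after seeing the data, gave 116. The cause of these shifts was not tested. Over all probe sets the number of tests was larger, and the SE of Adgrg6 was 0.132 against 0.122 in the main fit. The replicate block changed no member's call other than that of Gas7. The filter on dim genes left out S100b and Dhh. Without detection calls, signal over background is unknown for S100b, Dhh and Egr2.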

Other observations

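Several genes took 2 levels among the wild-type arrays, with replicates 1 and 2 below replicates 3 and 4, and these included genes that do not mark glia. This was seen in the values and the genes were picked for it, and no label gives such sets. Cnp stood at 10.16 and 10.08 against 10.95 and 10.96, Cmtm5 at 9.34 and 9.16 against 9.97 and 9.96, Ednrb at 12.48 and 12.39 against 13.16 and 13.25, and Cdh19 at 10.39 and 10.37 against 11.83 and 11.92. Outside the glial genes, the keratin gene Krt5 stood at 8.04 and 8.44 against 9.40 and 9.42, Prrx1, a gene of mesenchyme, at 10.17 and 9.93 against 10.93 and 10.99, and Deptor at 10.32 and 10.29 against 11.06 and 11.14. In Dom/Dom, replicates 1 and 2 against 3 and 4, Cnp stood at 9.17 and 9.54 against 9.26 and 9.38, Cmtm5 at 8.67 and 8.60 against 8.43 and 8.34, and Ednrb at 12.05 and 11.83 against 11.79 and 11.91. The step was also present in Dom/Dom for Prrx1, at 10.66 and 10.54 against 11.20 and 11.39, and for Cdh19, at 6.09 and 6.63 against 7.14 and 7.63, the latter under the limit of the olfactory receptor genes. Krt5, at 8.42 and 7.62 against 8.21 and 7.73, and Deptor, at 9.27 and 9.59 against 9.26 and 9.47, lacked the step in Dom/Dom. Genes of the Dhh pathway stepped the other way in both genotypes, with replicates 1 and 2 the higher. In wild type, Ptch1 stood at 11.91 and 11.98 against 11.55 and 11.58, and Gas1 at 11.95 and 11.82 against 11.53 and 11.44. In Dom/Dom, Ptch1 stood at 12.32 and 12.12 against 11.40 and 11.50, and Gas1 at 11.85 and 11.86 against 11.65 and 11.63. Gli2 and Gli3 went likewise in each genotype. Fabp7 showed neither step, at 13.90 and 14.16 against 14.06 and 14.14 in wild type. The cause was not tested.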
